A study of Danio rerio with 75 samples.

Results

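In the zebrafish (Danio rerio) brain, 47 genes stood higher at each of 4 successive age steps, and these genes are described here. They were selected on measured values, as the genes of which the mean level in brain was in the order 6, 12, 24, 36 and 42 months from lowest to highest, was at least 2 CPM (the gene's share of the library's counts, scaled to a fixed total) on average over the ages, and was at least 1.5 times as high at 42 as at 6 months. Counts were given for 32677 genes, and 17325 of them reached 2 CPM in brain. Of these, 0.623% had means in rising order at any fold and 47 (0.271%) met the whole rule. Conversely, 96 had means in falling order, 30 of them by at least 1.5-fold. As the brain levels chose the members, they are given as a description and were not tested. Members were tested in skin and liver only, and the tests given for brain are of genes that are not members.

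The series holds RNA sequencing of brain, skin and liver of male fish of the AB JxTu strain (TüAB in the study's methods), with sampling at midday or soon after it according to the study's methods. Brain and skin had 5 libraries per age and liver 4 at 6 and at 12 months and 5 at each later age, which gave 73 grouped libraries. For fish of 6 and 24 months no transgene is listed. Those of 12 months were Tg(flk:mCherry), those of 36 months Tg(pu.1:GFP) and those of 42 months Tg(wt1a:GFP), so that line and age cannot be told apart in a step to or from these ages. At 6 months the brains of 2 fish were pooled for each library, whereas the later libraries were of single fish, so that pooling and age cannot be told apart in comparisons with 6 months in brain. Library totals were 29006611 to 44324353 counts in brain, 32925263 to 48935972 in skin and 31306947 to 58166358 in liver. Summed neuron markers were 5418 to 6751 CPM over the brain libraries. Summed oligodendrocyte markers went from a median of 15043 CPM at 6 months to 6676 CPM at 42 months. Over 24 myelin and oligodendrocyte genes of at least 2 CPM the median log2 ratio of 42 to 6 months was -0.24. Summed lymphocyte markers went from a median of 4.35 to 10.55 CPM, with ranges that overlapped (3.48 to 8.64 and 6.11 to 24.7 CPM). The part that such shifts in cell markers had in the levels of the members was not tested. In bulk tissue, fewer cells of a type and less RNA per cell cannot be told apart.

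As background, tissue ageing is known for a build-up of immune transcripts in the vertebrate brain, where microglia, the resident macrophages, take up debris, degrade it in lysosomes and can present peptides on major histocompatibility complex (MHC) class II molecules. Class II molecules are pairs of an alpha and a beta chain, made under the control of the transactivator CIITA and loaded with the help of the invariant chain CD74. Cells also answer damage to DNA with repair enzymes, and cytokine signals with feedback inhibitors of the SOCS family.

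By known roles, grouped after their values were seen, 12 members were immune or myeloid genes, 2 acted in DNA repair, 6 in signalling, 5 in metabolism, transport or protein handling, 10 had other names and 12 had no described role. Of the 47 members 43 were protein coding. The ratio of the mean at 42 months to that at 6 months had a median of 2.01 and ran from 1.502 to 11.098, and 24 members reached 2-fold. Mean levels at 6 months were 0.946 to 124.9 CPM (median 4.58) and at 42 months 2.85 to 418 CPM (median 7.67). The median ratio was 2.12 for the 12 immune members and 2.27 for the 12 without a described role. It was 1.64 for the signalling members and 1.54 for those of metabolism, transport and protein handling. The ratio was part of the rule and the groups were made after it was seen, so no difference between groups is read from these medians. Of 50 gene lists chosen with earlier results known, 9 held a member, and 12 members were on a list. The lists of macrophages, lysosomes, DNA repair and Hox genes held 2 each.

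**Figure D1:**
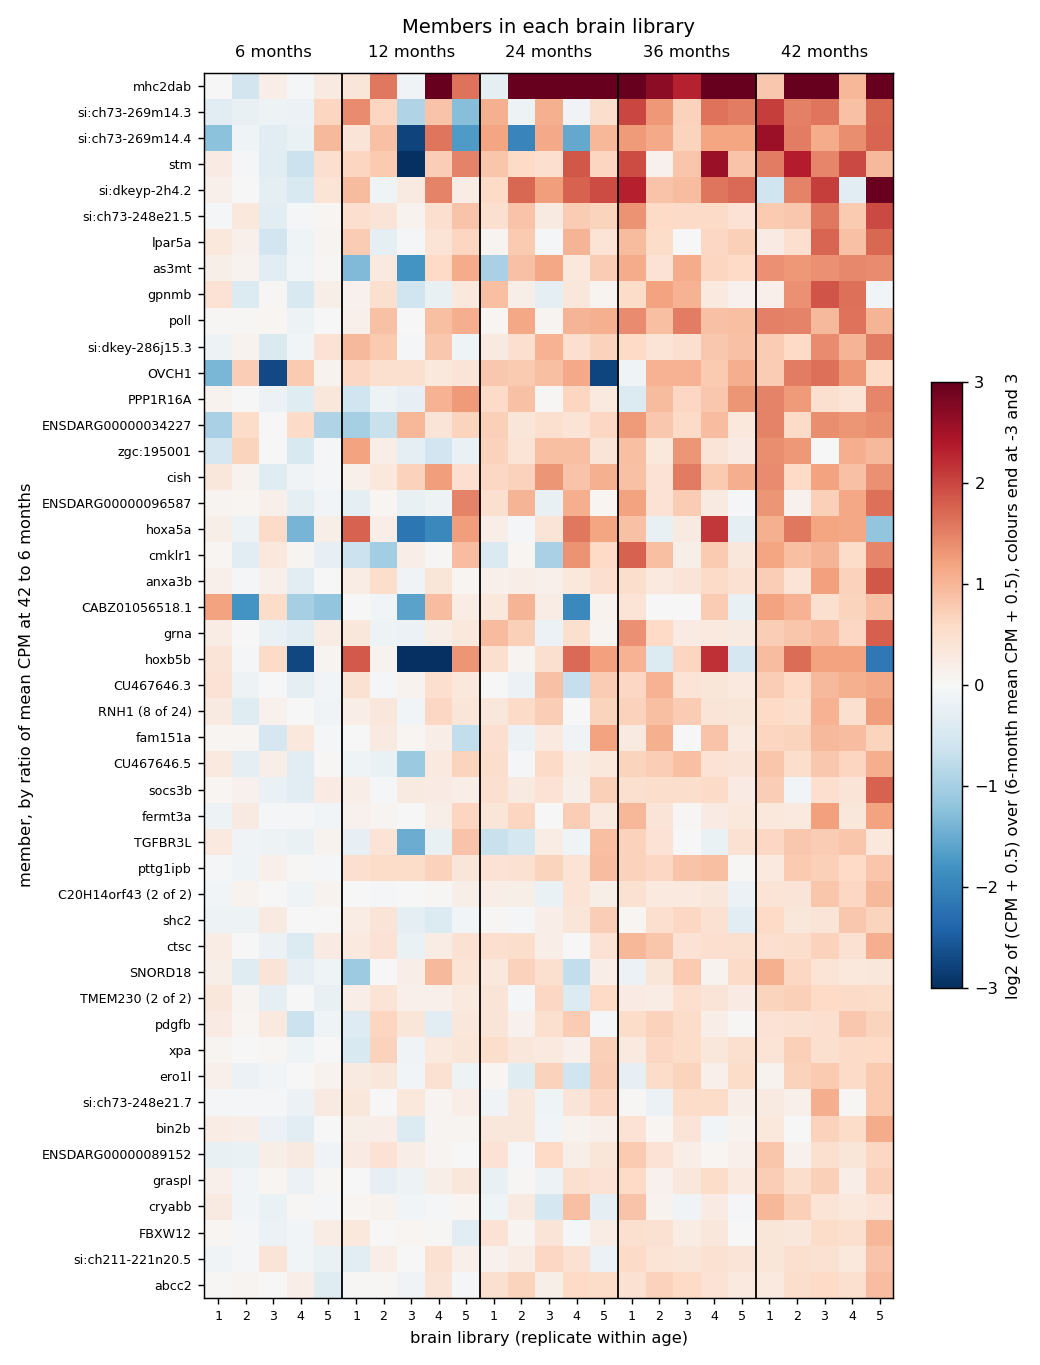
Level of each of the 47 members (rows, by ratio of mean CPM at 42 to 6 months) in each of 25 brain libraries (columns, 5 per age), as log2 of CPM + 0.5 over the 6-month mean CPM + 0.5. The mean of each row is highest at 42 months by selection, while single libraries of 12 and 24 months are at or under the 6-month mean for many members.

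Of the members, 2 encode class II molecules, and these had the highest and the fifth highest ratio. The beta chain gene mhc2dab (ENSDARG00000079105) stood at 5.33, 3.45, 6.10, 5.09 and 6.51 CPM in the 5 brain libraries of 6 months. At 12 months it had 6.96, 17.0, 4.87, 46.7 and 17.5 CPM and at 24 months 4.26, 47.2, 52.6, 47.6 and 83.6 CPM. At 36 months it had 84.5, 36.7, 28.4, 52.0 and 58.6 CPM and at 42 months 9.63, 46.2, 68.2, 11.05 and 159 CPM. The 6-month libraries were thus close together, while those of 12, 24 and 42 months each held both libraries near the 6-month level and libraries far above it. Each 6-month library was a pool of 2 fish and each later one a single fish, so that age and pooling cannot be told apart in this difference of spread. All libraries of 36 and of 42 months lay above all of 6 months, and the ratio of means was 11.098.

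The gene si:dkeyp-2h4.2 (ENSDARG00000031745), which the reference names mhc2daa, an alpha chain, had 29.9, 27.2, 22.4, 19.3 and 35.6 CPM at 6 months. At 42 months it had 17.5, 76.6, 115, 21.6 and 212 CPM, a ratio of means of 3.29. The libraries of replicates 1 and 4 at 42 months, which were low for mhc2dab, were the low ones for the alpha chain as well, and lay under the 6-month mean of 26.9 CPM. Replicate 5 was the highest for both chains.

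The class II partner genes were no members. The invariant chain gene cd74a had 484, 359.9, 369, 333 and 537 CPM at 6 months and 349, 490.2, 775, 439.9 and 1157 CPM at 42 months, and these ranges overlapped. The transactivator gene ciita had 5.29, 5.96, 4.103, 4.25 and 4.93 CPM at 6 months and 10.8, 10.97, 13.9, 12.7 and 10.2 CPM at 36 months, with every value of 36 months above every one of 6 months. At 42 months it had 5.51, 6.16, 10.9, 7.56 and 12.7 CPM, and 1 of these values lay within the range of 6 months. It was one of 12 genes of the antigen presentation list that were called higher in old brain (36 and 42 months) than in young brain (6 months), among 30 tested that were not members, with 0 called lower. The log2 fold change of ciita was 1.02 (SE 0.19, adjusted p = 9.6e-04 by the quasi-likelihood test of edgeR, adjusted after Benjamini and Hochberg), with 4.91 ± 0.763 CPM (SD, n = 5) in young and 10.1 ± 2.84 CPM (SD, n = 10) in old brain. Of all 23028 genes tested in brain 8.97% were called higher and 10.6% lower in this comparison. Such counts for brain were made only for the 9 lists that held a member, on the same libraries that chose the members.

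Further immune members are known from macrophages and other white blood cells. The chemerin receptor gene cmklr1 (ENSDARG00000090890) had 7.65, 5.78, 9.24, 7.66 and 6.01 CPM at 6 months and 26.01, 14.1, 8.34, 12.8 and 9.40 CPM at 36 months. At 42 months it had 17.1, 14.04, 15.2, 10.9 and 20.9 CPM, all of them above every 6-month value. The granulin gene grna, of the family of the lysosomal protein progranulin, had 40.7, 34.5, 30.0, 27.7 and 40.2 CPM at 6 months and 57.8, 61.9, 66.2, 53.4 and 121.9 CPM at 42 months, again without overlap. Replicate 5 of 42 months stood far above the other 4. The cathepsin C gene ctsc, a lysosomal protease that activates other proteases, went from 15.9 to 25.2 CPM at 6 months to 29.5 to 45.97 CPM at 42 months, and 48.5% of the rise of its mean on the log2 scale fell between 24 and 36 months, as all shares of a rise given here are on that scale. The gene gpnmb, a membrane glycoprotein of phagocytes and pigment cells, had 2.52, 1.17, 1.79, 1.14 and 2.02 CPM at 6 months and 1.99, 5.27, 7.79, 6.51 and 1.59 CPM at 42 months. These overlapped, as replicates 1 and 5 of 42 months lay within the range of 6 months.

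Both inhibitors of cytokine signalling among the members were at low levels. The gene cish, a SOCS family inhibitor that cytokines induce, had 3.63, 3.01, 2.03, 2.56 and 2.63 CPM at 6 months and 3.15, 3.60, 4.77, 7.29 and 4.12 CPM at 12 months, and 57.6% of its log2 rise fell into this step. At 42 months it had 8.23, 4.44, 7.07, 5.56 and 7.91 CPM. The gene socs3b went from 4.67 to 7.10 CPM to 5.55 to 21.2 CPM, and at 42 months 1 library of 5 lay within the range of 6 months. The remaining immune members were fermt3a, a kindlin that activates integrins in blood cells, ENSDARG00000096587, which the reference names itgam.2 after an integrin subunit of myeloid cells, bin2b, and RNH1 (8 of 24), which the reference names nlrc7. Their ratios were 1.799, 2.39, 1.54 and 1.95.

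Summed markers of macrophages (8 of 10 found, of which c1qc was at 0 throughout) were 101.5, 122.2, 117.3, 96.9 and 98.97 CPM in the brain libraries of 6 months. At 12 months they were 153, 149.9, 124.4, 126.3 and 156 CPM, all above every library of 6 months, and at 24 months 144, 147.7, 96.5, 177 and 132.7 CPM. At 36 months they were 150.998, 127, 105, 104.5 and 101.9 CPM and at 42 months 123, 144, 209.6, 130.5 and 244 CPM. Replicates 3 and 5 of 42 months were the highest of all 25 libraries for these markers, but the median of 12 months (149.9 CPM) lay above that of 42 months (144 CPM), so that the markers did not follow the order of ages. Replicate 5 of 42 months was the highest library of its age for 19 of the 47 members (40.4%), against 24.6% of all genes, and replicate 1 of 36 months for 20 (42.6%), against 17.8%. As the rule used the means that these libraries raise, such an excess is partly built in by the choice of members, and nothing is read from it. The part that macrophage content had in the levels of the immune members was not tested. Among genes of the macrophage list that were not members, 17 of 47 were called higher and 1 lower in old brain. Among those of the lysosome list 17 of 66 were called higher and 1 lower. Of all genes 8.97% were called higher and 10.6% lower. These lists share genes, hexb among them. For inflammatory genes the counts were 8 of 49 higher and 2 lower, and for heat shock genes 11 of 45 and 2. For antioxidant genes they were 3 of 47 higher and 1 lower, and for pigment cell genes 3 of 26 and 2. Lists without a member were not counted in this way, so these lists are not shown to stand out. The median log2 ratio of 42 to 6 months was 0.785 for the interferon list and 0.529 for the lymphocyte list, both with 0 members. It was 0.776 for antigen presentation and 0.624 for macrophages. The lysosomal membrane gene cln3 had a log2 fold change of 0.57 (SE 0.06, adjusted p = 2.2e-06, edgeR).

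Of the DNA repair list 2 of 64 genes were members (3.125%), against 0.271% of all genes of at least 2 CPM. The share was higher for Hox genes (2 of 14), pigment cells (1 of 16) and macrophages (2 of 45). It was also higher for antigen presentation (1 of 28) and lysosomes (2 of 61). It was lower for inflammatory (1 of 40), heat shock (1 of 41) and antioxidant genes (1 of 43). DNA repair is thus not shown to stand out among the lists that held a member. The gene poll (ENSDARG00000039613) encodes DNA polymerase lambda, which fills short gaps in base excision repair and end joining. It had 10.8, 10.7, 10.96, 9.38 and 10.6 CPM at 6 months and 11.7, 19.6, 10.51, 20.01 and 22.997 CPM at 12 months. At 24 months it had 10.98, 23.9, 11.09, 21.7 and 22.5 CPM, at 36 months 29.0, 19.98, 31.6, 19.7 and 20.1 CPM and at 42 months 31.0, 30.4, 21.0, 33.4 and 21.7 CPM. The 25 values fell into 3 ranges, set after they were seen, with 9 libraries at 9.38 to 11.7 CPM, 11 at 19.6 to 23.9 CPM and 5 at 29.0 to 33.4 CPM, and none between. All 5 libraries of 6 months, 2 of 12 and 2 of 24 months were in the lowest range, and 2 of 36 and 3 of 42 months in the highest. Those of 6 months were pools of 2 fish and the later ones single fish.

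The member as3mt, an arsenic methyltransferase gene, lies beside poll in the reference order of genes, with 1 gene between them. It had 10.8, 10.3, 7.52, 8.95 and 9.81 CPM at 6 months and 3.48, 11.8, 2.38, 14.6 and 21.0 CPM at 12 months. At 24 months it had 4.62, 17.8, 21.8, 11.9 and 16.5 CPM, at 36 months 21.0, 12.97, 21.2, 15.04 and 14.7 CPM and at 42 months 25.4, 24.3, 25.3, 26.7 and 26.4 CPM. The libraries of 42 months were all above those of 36 months and close to each other. The 3 lowest libraries, replicates 1 and 3 of 12 months and replicate 1 of 24 months, were also among the 4 libraries of single fish in the lowest range of poll. The remaining one, replicate 3 of 24 months, had as3mt at 21.8 CPM, the highest of its age.

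The nucleotide excision repair gene xpa went from 2.63 to 3.14 CPM at 6 months to 4.05 to 5.11 CPM at 42 months, without overlap. Among genes of the DNA repair list that were not members, 19 of 72 were called higher and 2 lower in old brain. The shares of all genes were 8.97% and 10.6%. The damage recognition gene ddb2 had the smallest p of the repair genes called, with a log2 fold change of 1.11 (SE 0.12, adjusted p = 3.7e-06, edgeR). It had 13.03 ± 1.22 CPM (SD, n = 5) in young and 29.3 ± 8.89 CPM (SD, n = 10) in old brain.

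**Figure D2:**
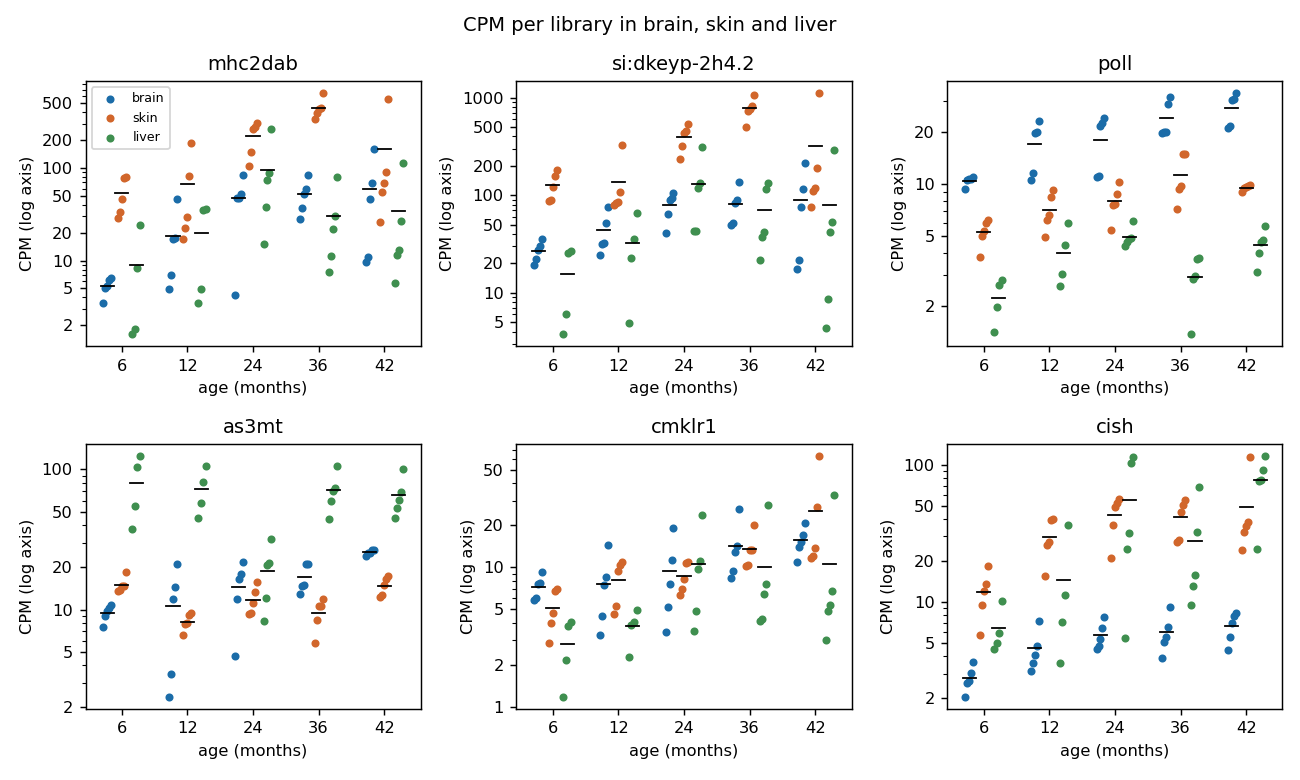
CPM (log axis) of 6 members in each library of brain, skin and liver by age in months, with a black line at the mean of each age and tissue. For mhc2dab 4 of the 5 skin libraries of 42 months sit at 26.3 to 90.2 CPM, under the 339 to 644 CPM of the skin libraries of 36 months, while poll in brain falls into 3 ranges.

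The members hoxa5a and hoxb5b encode homeodomain factors, which in vertebrate embryos set positions along the hindbrain and spinal cord. The gene hoxb5b had 7.22, 5.28, 8.34, 0.389 and 5.76 CPM at 6 months and 20.503, 5.87, 0.0336, 0.226 and 14.2 CPM at 12 months. At 36 months it had 11.7, 3.93, 8.74, 26.6 and 3.66 CPM and at 42 months 10.7, 18.4, 13.1, 13.1 and 0.832 CPM. The spread within an age was as wide as the difference between ages, and only 14.7% of the variance of its log2 values lay between ages (13.5% for hoxa5a, the lowest of the members). The order of means was lost in 11 of 25 cases for hoxb5b and in 10 for hoxa5a when 1 brain library was left out.

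The other Hox genes of the list varied between libraries side by side with these members. Their summed level was 58.1, 46.6, 60.7, 10.4 and 51.3 CPM at 6 months, 127, 57.8, 2.86, 10.6 and 86.3 CPM at 12 months and 87.3, 131.6, 105, 82.9 and 23.9 CPM at 42 months. The libraries with the lowest sums, replicate 4 of 6 months, replicates 3 and 4 of 12 months and replicate 5 of 42 months, were those with the lowest hoxa5a and hoxb5b. All 14 Hox genes of at least 2 CPM in brain, members or not, had a ratio of means above 1, from 1.44 for hoxb2a to 2.29 for hoxa5a. As Hox genes varied together between libraries, these are not 14 separate observations. Among 23 Hox genes tested that were not members, 1 (hoxb9a) was called higher and 0 lower in old brain. The shares of all genes were 8.97% and 10.6%. How much hindbrain or spinal cord each brain piece held was not tested.

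The gene stm (ENSDARG00000035694), starmaker, encodes an acidic protein that in zebrafish shapes the otoliths of the ear, and was the member with the highest level per length, at a mean of 81.0 RPKM in brain. It had 148.7, 119.98, 100.5, 79.4 and 176 CPM at 6 months and 197, 214, 9.74, 210.2 and 351 CPM at 12 months. At 24 months it had 221, 189.8, 177, 455 and 196 CPM, at 36 months 483, 136.2, 224, 759.8 and 228 CPM and at 42 months 363, 643, 343, 498 and 244 CPM. Replicate 3 of 12 months, at 9.74 CPM, was the library with the lowest sum of other Hox genes, and replicate 4 of 36 months, at 759.8 CPM, the one with the highest. Other libraries did not fall in this order. Replicate 4 of 12 months had stm at 210.2 CPM with a Hox sum of 10.6 CPM, while replicate 1 of 12 months had 197 CPM with a sum of 127 CPM. All libraries of 42 months lay above all of 6 months.

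**Figure D3:**
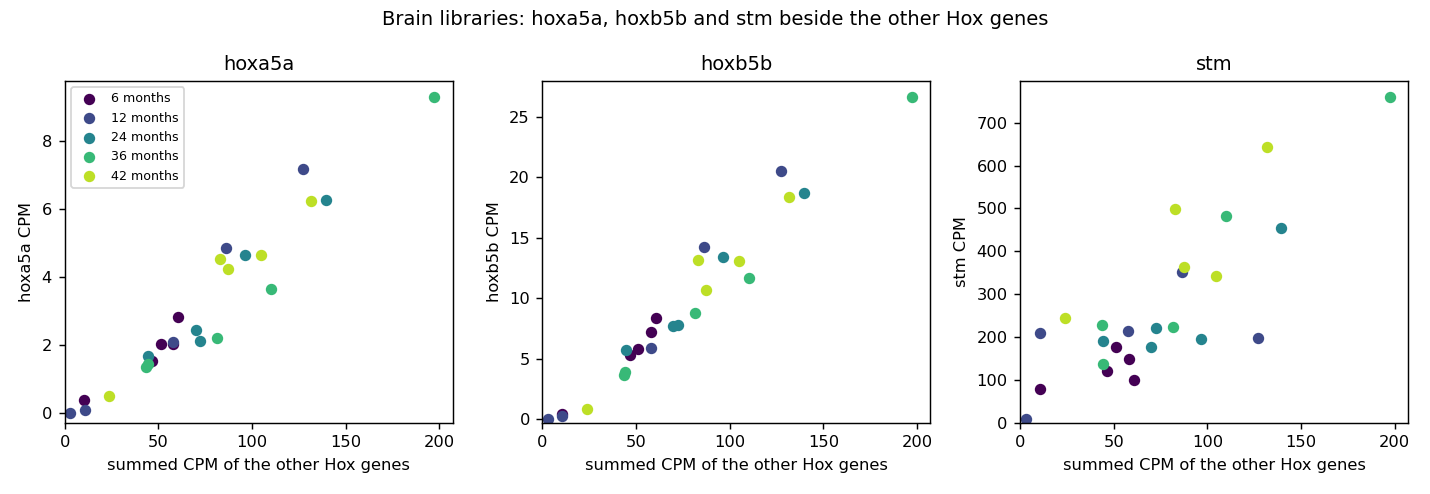
CPM of hoxa5a, hoxb5b and stm (vertical axes) against the summed CPM of the other Hox genes of the list in each of the 25 brain libraries, coloured by age. Both Hox members follow the sum across libraries of every age, from 2.86 CPM in replicate 3 of 12 months to 197 CPM in replicate 4 of 36 months.

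Some members had values near 0 in single libraries. The gene si:ch73-269m14.4 (ENSDARG00000086612) had 5.15, 7.38, 0.134, 12.6 and 0.825 CPM at 12 months and 9.31, 0.590, 9.05, 1.0002 and 8.12 CPM at 24 months, and at 42 months 24.9, 11.97, 8.90, 10.8 and 13.9 CPM. Its neighbour si:ch73-269m14.3, with 1 gene between them in the reference, was at its lowest in the same libraries of 12 months, with 0.269 CPM in replicate 3 and 0.0952 CPM in replicate 5. Near-identical copies of a gene can share reads. Whether these neighbours are such copies was not tested, and their levels are uncertain in that respect. The serine protease gene OVCH1, which the reference names ovch1, stood at 0.276 CPM in replicate 3 of 6 months and at 0.254 CPM in replicate 5 of 24 months, and at 7.12 to 15.5 CPM at 42 months.

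Levels of members were set side by side in brain and skin of the same fish, with examples chosen after the values were seen. For 13 fish a brain and a skin library were at hand, 4 of 12, 4 of 24, 4 of 36 and 1 of 42 months. The fish with si:ch73-269m14.4 at 0.134 CPM in brain had 0.250 CPM in skin, and the fish of 12 months with 12.6 CPM in brain had 8.49 CPM in skin. The fish of 12 months with mhc2dab at 6.96, 17.0, 4.87 and 46.7 CPM in brain had 29.8, 81.4, 22.6 and 184 CPM in skin, in the same order. The order was also shared at 24 months but not at 36 months. There the fish at 84.5, 36.7, 28.4 and 58.6 CPM in brain had 644, 339, 429 and 445 CPM in skin. For poll the fish of 36 months at 29.0 and 31.6 CPM in brain had 14.8 and 14.9 CPM in skin, and those at 19.98 and 20.1 CPM in brain had 9.40 and 7.22 CPM in skin. The upper pair of poll in brain was the upper pair in skin, while within the lower pair the order was turned. Over the 36 members of at least 2 CPM in both tissues, the number of the 13 fish that lay on the same side of their age mean in brain and in skin had a median of 8, against 7 over 13879 genes. It was at least 11 for 5 members (13.9%), which were graspl, si:ch73-269m14.4, ENSDARG00000096587, cmklr1 and poll, against 6.09% of all genes. For mhc2dab the number was 10 and for si:dkeyp-2h4.2 it was 8. The lowest numbers were 3 for shc2, 4 for grna and 5 for ctsc.

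**Figure D4:**
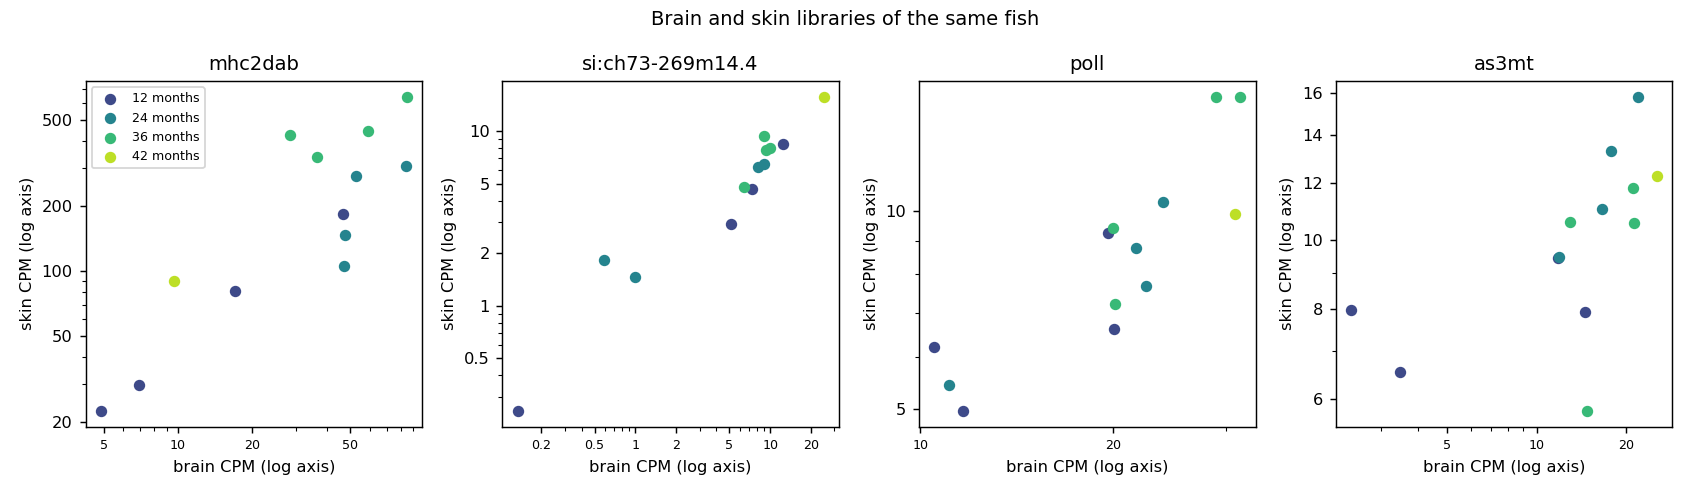
Brain CPM against skin CPM (log axes) of mhc2dab, si:ch73-269m14.4, poll and as3mt in 13 fish with both libraries, coloured by age. The fish lowest in brain for si:ch73-269m14.4, at 0.134 CPM, is the lowest in skin, at 0.250 CPM.

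Of the signalling members, the lysophosphatidic acid receptor gene lpar5a went from 0.689 to 1.70 CPM at 6 months to 1.63 to 5.51 CPM at 42 months. The growth factor gene pdgfb went from 2.79 to 5.86 CPM to 6.51 to 8.51 CPM, without overlap. The remaining ones were TGFBR3L, the adaptor gene shc2, PPP1R16A, a regulatory subunit of protein phosphatase 1, and graspl, a scaffold gene that the reference names tamalin, with ratios of 1.65, 1.62, 2.48 and 1.53. Of those with other roles, the calcium-dependent phospholipid binding annexin gene anxa3b stood at 37.3, 33.0, 37.6, 27.2 and 33.5 CPM at 6 months and at 56.2, 45.4, 79.5, 55.2 and 124.9 CPM at 42 months, with 57.9% of its log2 rise in the last step. Replicate 5 of 42 months was far above the other libraries of that age.

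Of the members of metabolism, transport and protein handling, abcc2 encodes an efflux transporter of conjugated compounds. It had 52.3, 54.3, 50.2, 58.4 and 39.4 CPM at 6 months and 52.5, 52.5, 47.5, 66.6 and 48.9 CPM at 12 months. At 24 months it had 71.6, 81.5, 57.3, 77.0 and 74.3 CPM and at 42 months 62.4, 74.1, 77.8, 71.0 and 96.99 CPM. Its share of variance between ages was the highest of the members, 65.8%, and 73.9% of its log2 rise fell between 12 and 24 months. The genes pttg1ipb, C20H14orf43 (2 of 2), SNORD18, FBXW12 and fam151a, also given here, are not of this group but of the members with other names. The gene pttg1ipb had 81.9% of its log2 rise between 6 and 12 months, from 4.57, 4.23, 5.27, 4.77 and 4.52 CPM to 6.87, 7.03, 7.09, 7.90 and 6.19 CPM, with no overlap. C20H14orf43 (2 of 2), which the reference names mideasa, had 61.2% of its log2 rise between 36 and 42 months, with 10.2, 9.10, 9.14, 9.43 and 6.48 CPM and 9.96, 9.80, 13.5, 11.5 and 14.96 CPM. The small heat shock protein gene cryabb, the endoplasmic reticulum oxidase gene ero1l and TMEM230 (2 of 2) had ratios of 1.52, 1.54 and 1.57. The small nucleolar RNA gene SNORD18, at a mean of 47.7 RPKM, came next after stm in level per length and had 1.93 to 3.59 CPM at 6 months and 3.40 to 6.04 CPM at 42 months. FBXW12 and fam151a had ratios of 1.52 and 1.91.

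Of the members without a described role, ENSDARG00000034227 had 5.06, 15.33, 10.51, 15.7 and 5.32 CPM at 6 months and 29.8, 15.6, 28.2, 26.9 and 27.9 CPM at 42 months. It and RNH1 (8 of 24) were the 2 members that met the rule whichever of the 25 brain libraries was left out. The gene ENSDARG00000088283 went from 1.83 to 3.12 CPM to 4.51 to 10.99 CPM. The ratios of the others were 4.12 for si:ch73-269m14.3, 3.69 for si:ch73-269m14.4, 2.60 for si:dkey-286j15.3, 2.42 for zgc:195001, 2.11 for CABZ01056518.1, 2.01 for CU467646.3, 1.84 for CU467646.5, 1.54 for ENSDARG00000096331, 1.53 for ENSDARG00000089152 and 1.51 for si:ch211-221n20.5. The symbols of ENSDARG00000088283 and ENSDARG00000096331 name the same clone, as do those of CU467646.3 and CU467646.5. Whether genes of such a pair overlap or share reads was not tested.

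The threshold fell within a run of close values. Just inside it were abcc2, si:ch211-221n20.5 and FBXW12, with ratios of 1.502, 1.506 and 1.518. Just outside were fam217b, TMEM98 and CU463231.1, with ratios of 1.485, 1.467 and 1.453.

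The steps between ages are given as a description only, since the rule used the same means, and the ages are not evenly spaced. Any set of 4 rises has a largest one, and no share over all genes was counted for it. The largest of the 4 log2 steps was that from 6 to 12 months in 14 members, from 12 to 24 months in 7, from 24 to 36 months in 5 and from 36 to 42 months in 21 (44.7%). The median log2 step was 0.25, 0.20, 0.13 and 0.31 in this order, while the medians of all genes were within 0.05 of 0. In 16 members a single step made more than 50% of the log2 rise. Neighbouring ages mostly overlapped: every library of the later age lay above every one of the earlier for 1 member from 6 to 12 months (pttg1ipb), 0 from 12 to 24 months, 0 from 24 to 36 months and 2 from 36 to 42 months (as3mt and TMEM230 (2 of 2)). Over all 17325 genes this held for 6.07%, 3.38%, 8.18% and 5.33% in the same order of steps. From 6 to 42 months it held for 30 members (63.8%), against 4.89% of all genes, a contrast that the rule itself used. The medians of the 5 libraries per age were in rising order in 13 of the 47 members (27.7%). Leaving out 1 of the 25 brain libraries kept a member in 13 to 25 cases (median 20).

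The question of whether the members moved the same way in the other tissues was asked in skin, which is not wholly independent, since 15 of its 25 libraries came from fish of the brain libraries. Of 46 members tested, 9 were called higher (19.6%) and 2 lower (4.35%) in old than in young skin, against 7.81% and 7.32% of all 22429 genes tested. The median log2 fold change of the members was 0.25, against 0.01 over all genes, and 33 of 46 were above 0, against 51.3% of all genes.

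The members called higher were the class II genes mhc2dab and si:dkeyp-2h4.2, cmklr1, cish, pdgfb, poll, ENSDARG00000088283 and the neighbours si:ch73-269m14.3 and si:ch73-269m14.4. The smallest p was that of pdgfb, with 5.49, 2.96, 2.62, 1.32 and 3.26 CPM at 6 months and 9.30, 9.09, 11.14, 6.10 and 5.67 CPM at 36 months. At 42 months it had 7.88, 8.18, 10.2, 6.89 and 6.57 CPM, so that every old library lay above every young one. Its log2 fold change was 1.29 (SE 0.25, adjusted p = 0.0016, edgeR). The inhibitor gene cish had 18.3, 13.6, 11.9, 9.52 and 5.76 CPM at 6 months and 49.5, 56.6, 53.03, 36.3 and 21.0 CPM at 24 months. At 42 months it had 24.1, 35.7, 32.1, 38.1 and 114 CPM, and the old libraries lay above all young ones, by 1.84 on the log2 scale (SE 0.37, adjusted p = 0.0023, edgeR).

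The receptor gene cmklr1 was the only member with skin means in rising order over the 5 ages, of 36 members at 2 CPM or more there (2.78%), against 1.72% of 16147 genes. It had 4.01, 2.87, 6.96, 4.72 and 6.77 CPM at 6 months and 63.2, 11.7, 13.8, 12.1 and 26.9 CPM at 42 months, and the old libraries lay above the young by 1.73 on the log2 scale (SE 0.36, adjusted p = 0.0029, edgeR). The repair polymerase gene poll had 5.35, 3.804, 6.21, 5.03 and 5.98 CPM at 6 months and 9.46, 9.74, 9.59, 9.05 and 9.90 CPM at 42 months, a difference of 0.86 for old against young on the log2 scale (SE 0.18, adjusted p = 0.0031, edgeR). Here too the old and young libraries did not overlap. Among 72 genes of the DNA repair list tested in skin that were not members, 7 were called higher and 5 lower. The shares of all genes were 7.81% and 7.32%.

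In contrast, the class II genes in skin were highest at 36 months. The beta chain gene mhc2dab had 45.7, 80.5, 28.6, 78.1 and 33.4 CPM at 6 months and 644, 339, 429, 445 and 390.1 CPM at 36 months, but 55.3, 68.2, 26.3, 558 and 90.2 CPM at 42 months. All libraries of 36 months and 1 of 42 months lay far above those of 6 months, while the other 4 of 42 months overlapped with them or lay just above them. The log2 fold change of old against young was 2.23 (SE 0.66, adjusted p = 0.025, edgeR), and that of 42 against 6 months alone was 1.43 with an adjusted p of 0.20 (edgeR). The call was lost without skin replicate 1, 3 or 5 of 6 months (adjusted p = 0.056, 0.066 and 0.076, edgeR). Among 32 genes of the antigen presentation list tested in skin that were not members, 1 was called higher and 1 lower. The shares of all genes were 7.81% and 7.32%. In skin cd74a stood at 1974 to 2494 CPM at 6 months and 743 to 1566 CPM at 24 months. At 36 and 42 months it had 1512 to 2564 and 1559 to 2250 CPM. The transactivator gene ciita had 15.8 to 69.0 CPM at 6, 11.5 to 36.6 CPM at 36 and 15.2 to 51.3 CPM at 42 months.

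Of the 2 lower members, gpnmb had 93.4, 54.3, 77.5, 59.2 and 72.1 CPM at 6 months and 35.7, 36.9, 28.4, 22.95 and 18.5 CPM at 36 months, with 1 library of 42 months at 72.2 CPM. It fell by 1.09 on the log2 scale (SE 0.23, adjusted p = 0.0033, edgeR). The gene as3mt had 18.6, 13.7, 14.7, 13.7 and 14.8 CPM at 6 months, 11.8, 10.6, 10.6, 5.78 and 8.43 CPM at 36 months and 17.3, 16.4, 12.6, 14.9 and 12.3 CPM at 42 months, and fell by 0.46 (SE 0.14, adjusted p = 0.035, edgeR). For as3mt the call was lost without replicate 1 or 5 of 6 months or replicate 3 or 5 of 42 months (adjusted p = 0.060, 0.051, 0.053 and 0.052, edgeR). The fitted difference of as3mt between 42 and 6 months alone had an adjusted p of 0.44 (edgeR).

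The calls of 4 more members changed when a library was left out. That of si:dkeyp-2h4.2 was lost without replicate 2 or 4 of 6 months (adjusted p = 0.052 and 0.063), that of si:ch73-269m14.4 without replicate 4 or 5 of 6 months (0.059 and 0.053), that of ENSDARG00000088283 without replicate 1 or 2 of 6 months (0.063 and 0.072) and that of si:ch73-269m14.3 in 15 of 25 cases (up to 0.123), all by edgeR. Skin libraries of fish that gave no brain library were 3 of 6, 1 of 12, 1 of 24, 1 of 36 and 4 of 42 months. In a fit of these 10 libraries 0 members were called, with 5 genes higher (0.0211%) and 6 lower (0.0253%) of 23694, and the 11 members kept their direction, with adjusted p-values of 0.22 to 0.61 (edgeR). Summed muscle markers ran from 5743 to 99053 CPM over the skin libraries. With them as a covariate 7 of the 9 higher and 1 of the 2 lower members were called, against 6.49% and 6.88% of all genes.

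**Figure D5:**
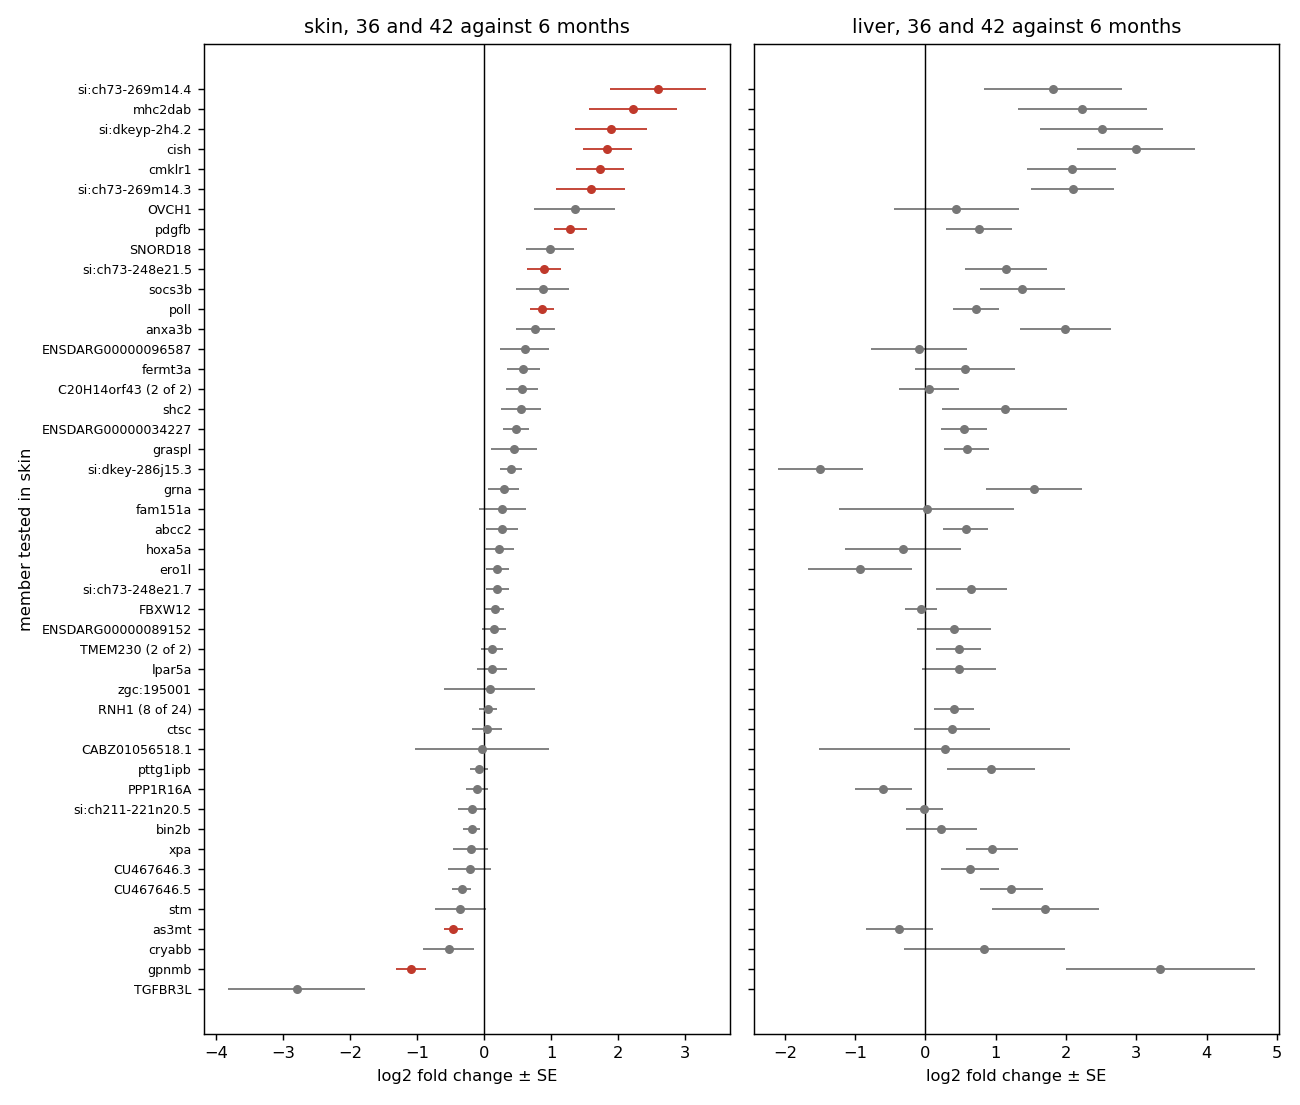
Log2 fold change of 36 and 42 against 6 months with its standard error for each member in skin (left) and liver (right), ordered by the skin value, with called members in red. In skin 9 members are called higher and 2 lower, and in liver 0 are called, with wider errors.

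The comparison of 24 with 6 months is the one without a listed change of line. In skin 2 members were called higher and 3 lower of 46, against 10.7% and 9.49% of all genes. The higher ones were cish, at 21.0 to 56.6 CPM at 24 months and 5.76 to 18.3 CPM at 6 months (log2 fold change 1.75, SE 0.40, adjusted p = 0.0039, edgeR), and ero1l, at 4.54, 4.40, 3.35, 4.36 and 4.87 and 5.44, 12.3, 4.34, 8.99 and 7.73 CPM at 6 and 24 months (0.71, SE 0.20, adjusted p = 0.016, edgeR). Without replicate 2 of 24 months the call of ero1l was lost (adjusted p = 0.070, edgeR). The lower ones were lpar5a, CU467646.5 and as3mt, of which lpar5a fell by 0.94 (SE 0.26, adjusted p = 0.015, edgeR), from 5.58 to 7.64 CPM down to 1.85 to 5.29 CPM, without overlap. The call of as3mt was lost in 10 of 25 cases when a library was left out.

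In liver the test found little in any gene. Of 21045 genes 0.038% were called higher and 0.152% lower at 36 and 42 than at 6 months. Of the 44 members tested 0 were called in either direction by edgeR. At an unadjusted p under 0.05, 13 members were higher and 1 lower, against 6.84% and 7.31% of all genes. DESeq2 called 5 members higher and 0 lower, against 1.83% and 1.5% of the 20016 genes to which it gave an adjusted p. The fitted log2 fold change was above 0 in 35 of 44 members, against 48.9% of all genes. Its median was 0.58, against -0.02 over all genes. The inhibitor gene cish, called in skin, had 10.2, 5.03, 4.57 and 5.90 CPM at 6 months and 77.8, 92.2, 76.6, 116.2 and 24.5 CPM at 42 months, with an adjusted p of 0.13 for old against young (edgeR). Of 30 members at 2 CPM or more in liver, 0 had means in rising order, against 0.607% of 13664 genes. Markers of intestine summed to 241 to 72232 CPM over the 23 liver libraries, with 9 above 2000 CPM. Without these 9, 1 member was called higher and 0 lower, against 0.0178% and 0.209% of all genes. At 6 months replicates 1 and 2 had 56740 and 72232 CPM of these markers, and replicates 3 and 4 had 602 and 1087 CPM. Against the 6-month mean, the median log2 level of 30 members was 0.48, 0.64, -1.25 and -1.62 in these 4 libraries. Over all genes it was 0.32, 0.32, -0.45 and -0.54. The part that intestine content had in the fold changes of the members was not tested.

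From 6 to 24 months in liver, 2 members were called higher and 1 lower of 44, against 1.68% and 1.88% of all genes. The methyltransferase gene as3mt had 55.1, 37.5, 125.1 and 104.1 CPM at 6 months and 21.4, 12.1, 8.27, 32.1 and 20.7 CPM at 24 months, without overlap, and fell by 2.72 (SE 0.57, adjusted p = 0.017, edgeR). At 36 and 42 months it was at 44.4 to 106.1 CPM again. The repair gene xpa had 0.415, 0.422, 0.308 and 0.369 CPM and 2.25, 1.34, 0.749, 1.33 and 1.56 CPM (log2 fold change 1.51, SE 0.41, adjusted p = 0.044, edgeR), and ENSDARG00000089152 had 0.735, 0.814, 0.781 and 0.577 CPM and 0.750, 6.71, 10.2, 4.54 and 2.65 CPM (2.48, SE 0.63, adjusted p = 0.034, edgeR). These calls were lost in 18 of 23 cases for xpa and 6 of 23 for ENSDARG00000089152 when a library was left out, and that of as3mt without replicate 3 of 6 months (adjusted p = 0.050, edgeR).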

How the data were processed

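Brain, skin and liver of zebrafish were measured by RNA sequencing. Per the methods and the submitters' processing notes, the authors sequenced TruSeq libraries as single-end reads, extracted them with CASAVA 1.8.0, mapped them with TopHat2 2.0.6 to Zv9 and assigned them to genes with HTSeq or featureCounts. The deposited count values are the authors' whole-number counts per gene, not normalised. The deposited RPKM values were made by the authors from these counts and served here only to compare levels between genes. Strand is not marked by the kit named, which leaves overlapping and antisense genes uncertain.

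Groups were taken from the sample labels. The labels of 2 libraries conflict, and these were put in no group. CPM is the count over the library total. Members and gene lists were chosen with earlier results of these data known, and so were the genes named: the 12 members with the highest ratio and an official symbol, those on a list, the 8 with the highest share of variance between ages (log2 of CPM with a pseudocount of 0.5), the 5 highest in RPKM, up to 6 called each way in skin and liver and 3 genes each side of the threshold. Other names were chosen after the values were seen.

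Counts were tested in each tissue with edgeR 4.0.16 in R 4.3.3 (low counts filtered by filterByExpr, TMM factors, robust quasi-likelihood, all 5 ages in the fit, a 2-sided adjusted p under 0.05 over all genes as a call). Old against young is the mean of 36 and 42 months minus 6 months. On simulated counts, 100 genes were changed 2-fold and 100 were changed 4-fold in old fish. The skin fit recovered 57% and 83% of these among 22429 genes, and the liver fit 3% and 31% among 21045. An adjusted p depends on how many genes change, so that these shares need not hold for the data. Replicates are separate fish or pools. Alternatives were DESeq2 1.42.0, RLE factors, no filter, other contrasts, other thresholds, subsets of libraries and leaving out each library. Of the 47 members 40 were matched to the reference name table of another assembly (GRCz12tu), used only for names and order. Tables were handled in Python 3.11.15 with pandas 2.3.3 and NumPy 2.4.6.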

Additional observations from a re-analysis of the deposited data

Results flagged for a closer look

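In 27 members with values shown, each of 5 ages in brain was looked at for a single library far from the other 4. This held 12 times over all members and ages looked at, and chance gives it in about 1 in 20 groups. At 36 months replicate 1 was high for grna (90.4 CPM, against 41.2 to 52.8 CPM in the others), cryabb (25.1 against 12.5 to 16.1 CPM) and ENSDARG00000088283 (6.89 against 3.44 to 3.93 CPM). At 42 months replicate 5 was high for grna (121.9 against 53.4 to 66.2 CPM). At 24 months replicate 4 was high for stm (455 against 177 to 221 CPM), and at 36 months replicate 4 for hoxa5a (9.30 against 1.35 to 3.64 CPM). At 12 months replicate 4 was high for abcc2 (66.6 against 47.5 to 52.5 CPM), and at 6 months replicate 5 for si:ch73-269m14.3 (1.77 against 0.653 to 0.793 CPM). Low libraries were replicate 5 of 24 months for OVCH1 (0.254 against 8.20 to 10.7 CPM), replicate 3 of 36 months for si:ch73-269m14.4 (6.37 against 8.95 to 9.94 CPM), replicate 2 of 12 months for socs3b (5.78 against 6.87 to 7.26 CPM) and replicate 4 of 6 months for poll (9.38 against 10.6 to 10.96 CPM). No member had old libraries all above young ones in 1 tissue and all below them in another.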

How the results depend on the processing

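The rising set held 36 genes on TMM-scaled CPM (32 of them among the 47), 41 with medians (11 shared), 64 at a minimum of 1 CPM and 27 at 5 CPM, 24 at a minimum of 2-fold and 78 at a minimum between 1 and 1.5-fold. Leaving out 1 brain library gave 32 (without replicate 3 of 24 months) to 52 genes, with 28 to 45 shared. In skin, old against young, a linear trend called 14 higher and 1 lower, 42 against 6 months 9 (6 shared) and 0, the fish without a brain library 0 and 0, the muscle covariate 7 and 1, and leaving out 1 library 6 to 10 and 1 to 3. For 24 against 6 months in skin DESeq2 called 6 higher and 5 lower (10.9% and 10.9% of all genes), the muscle covariate 6 and 3 (9.34% and 8.503%), the fish without a brain library 0 and 0, and leaving out 1 library 1 to 5 and 2 to 5. In liver, old against young, DESeq2 called 5 higher (1.83% of all genes), the libraries low in intestine genes 1, and leaving out 1 library 0 to 1. For 24 against 6 months in liver DESeq2 called 7 higher and 2 lower (5.48% and 5.23% of all genes), RLE factors and no filter 1 higher each, the fish without a brain library 0 and 0, and leaving out 1 library 0 to 3 and 0 to 1. The cause of these differences was not tested, but the fit of fish without a brain library used 10 skin and 12 liver libraries, of which 1 skin and 1 liver library were of 24 months and assumed to vary like the other ages, so that its 0 calls say nothing of stability. No alternative turned the direction of a called member. List genes among the members numbered 12, and 11 on TMM-scaled CPM. The orders of means in skin and liver and the steps in brain have no alternative. The search for promoter motifs was not run. No paired analysis was possible because the replicates of different ages are different fish. Genes of a few CPM and the liver comparisons, in which few genes were called, have the least precision.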
